A study of Mus musculus with 27 samples.

Results

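The 10 genes described here govern entry into the cell cycle and were followed through the first hours and at 48 h of fat cell induction: the D cyclins Ccnd1, Ccnd2 and Ccnd3, the E cyclins Ccne1 and Ccne2, the transcription factors E2f1 and Myc, the kinase inhibitors Cdkn1b (p27) and Cdkn2c (p18), and the retinoblastoma gene Rb1. They were taken by name, as every probe set whose platform annotation gives 1 of these 10 symbols, and no measured value enters that rule. The 10 genes and the gene lists used below were, however, chosen with earlier results of these data known. Their counts beside the shares of all genes are therefore descriptions. The 10 genes had 11 probe sets among the 28853 on the array, and 19938 genes could be tested in all. Cdkn1b had 2 probe sets, of which the brighter was used and the other is given beside it.

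The cells were 3T3-L1, a mouse embryo fibroblast line that turns into fat cells in culture. They carried the retroviral vector pMIG, either empty ("vector") or with Flag-ISL1, an epitope-tagged LIM homeodomain transcription factor ("ISL1"). The labels do not say whether the cells were pools or single clones. Cells were kept for 2 days after confluence and then given a mixture of 10% fetal calf serum, 350 nM insulin, 0.5 mM isobutylmethylxanthine, 250 nM dexamethasone and 400 nM biotin. The 0 h cells were in 10% serum too, without the other components. The groups were ISL1 cells before the mixture (0 h), vector cells before it and after 0.5, 1, 2, 4 and 8 h in it, and arrays labelled vector and ISL1 after 48 h. Each of the 9 groups had 3 arrays, which the submitters call biological triplicates. In the deposit the 0 h arrays, the 0.5 to 8 h arrays and the 48 h arrays are numbered in separate blocks. The labels do not say whether the blocks were processed apart. In comparisons between blocks, time and block cannot be told apart. Values are log2 intensities, so a difference of 1 is a 2-fold change, and the small number of arrays limits the precision of every value.

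The Isl1 probe set was read first, as a check of the construct. At 0 h it averaged 12.62 ± 0.015 in ISL1 cells and 7.34 ± 0.153 in vector cells (SD, n = 3 each). At 48 h it ran against the labels: it averaged 12.76 ± 0.035 on the arrays labelled vector and 7.65 ± 0.309 on the arrays labelled ISL1 (SD, n = 3 each). No array was moved to another group, so every 48 h group is named below by its label together with its Isl1 signal. All 9 fibroblast markers lay above the median of all genes in every group. The 10 adipocyte markers had medians per array of 7.93 to 8.08 in ISL1 cells at 0 h and 10.39 to 10.68 in vector cells at 0 h. Of the 7 measured macrophage and blood markers 0 to 2 lay above the median of all genes in a group, and of the 5 endothelial markers 0 did in any group. The 2 that reached it were Lyz2 and Cd68. The lysozyme gene Lyz2 averaged 7.21 in ISL1 cells at 0 h and 12.05 in vector cells at 0 h, and at 48 h it averaged 6.76 on the arrays labelled vector and 7.57 on those labelled ISL1. Ptprc (6.17 to 6.33) and Adgre1 (5.90 to 6.07), which define blood cells and macrophages, lay below the median of all genes in every group. Cd68, a lysosomal protein gene, averaged 8.23 in ISL1 cells at 0 h, 8.31 in vector cells at 0 h, 9.33 in vector cells at 4 h and 9.20 at 8 h, and at 48 h 8.37 on the arrays labelled vector and 8.94 on those labelled ISL1.

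Passage out of the first gap phase into DNA synthesis is set by cyclin-dependent kinases. D cyclins with Cdk4 or Cdk6, and then E cyclins with Cdk2, phosphorylate the retinoblastoma protein, which releases E2F factors that drive genes for DNA synthesis. Cdkn2c blocks Cdk4 and Cdk6, Cdkn1b blocks mainly the cyclin E and Cdk2 complex, and Myc drives genes of growth and ribosome building. Confluent, growth-arrested 3T3-L1 cells re-enter the cycle after the hormone mixture is added, a step called mitotic clonal expansion, before they become fat cells.

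Promoter sequence was held in the RefSeq table for 5 of the 10 genes, Ccnd3, Ccne1, Cdkn1b, Cdkn2c and E2f1, with 7 start sites. The promoters of the inhibitors, which fell in the first hours, and of Ccne1, which was higher at 8 h, are shown, from 250 bases before the start to 50 after it, 5′ to 3′ in the gene's direction (GRCm38.p6, RefSeq). Capitals mark CACGTG, the E-box read by Myc with Max.
Cdkn2c, chr4:109665323-109665622, minus strand: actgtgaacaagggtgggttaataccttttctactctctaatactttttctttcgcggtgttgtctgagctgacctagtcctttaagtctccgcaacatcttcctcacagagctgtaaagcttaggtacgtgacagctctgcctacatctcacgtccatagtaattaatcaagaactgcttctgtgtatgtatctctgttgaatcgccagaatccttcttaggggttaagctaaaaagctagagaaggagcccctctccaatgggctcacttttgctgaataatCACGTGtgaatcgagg
Cdkn2c, chr4:109666707-109667006, minus strand: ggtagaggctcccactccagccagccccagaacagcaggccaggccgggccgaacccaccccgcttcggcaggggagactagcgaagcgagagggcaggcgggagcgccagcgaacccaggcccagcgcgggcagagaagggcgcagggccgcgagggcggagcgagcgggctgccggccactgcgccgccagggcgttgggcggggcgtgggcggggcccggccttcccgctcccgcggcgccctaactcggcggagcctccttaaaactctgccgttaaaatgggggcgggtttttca
Cdkn1b, chr6:134920151-134920450, plus strand: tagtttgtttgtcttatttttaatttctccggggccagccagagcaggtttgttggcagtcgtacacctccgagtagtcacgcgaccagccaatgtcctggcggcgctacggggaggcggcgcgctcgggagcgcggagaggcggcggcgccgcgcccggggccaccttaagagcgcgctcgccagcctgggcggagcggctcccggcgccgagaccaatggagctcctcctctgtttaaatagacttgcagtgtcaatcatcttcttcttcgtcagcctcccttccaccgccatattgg
Ccne1, chr7:38107441-38107740, minus strand: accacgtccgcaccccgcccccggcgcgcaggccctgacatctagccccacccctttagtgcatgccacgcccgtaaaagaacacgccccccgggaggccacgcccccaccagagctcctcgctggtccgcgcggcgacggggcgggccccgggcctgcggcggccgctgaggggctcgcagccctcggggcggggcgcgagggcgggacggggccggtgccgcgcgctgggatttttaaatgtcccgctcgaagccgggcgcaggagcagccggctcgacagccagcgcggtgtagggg

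The E-box was found in 1 of the 7 promoters, the first one shown for Cdkn2c, with its first base 35 bases after the start. It occurs in 7.15% of the 32851 promoters of the table. The 4 words searched for E2F (TTTCGCGC, TTTGGCGC, TTTCCCGC and TTTGCCGC, on both strands) were in 0 of the 7 and in 2.26% of all promoters. The cAMP response element TGACGTCA was in 0 of the 7 and in 1.79% of all. These counts describe the letters in this window only, at the start sites that the table holds. Whether these start sites, that of E2f1 among them, are the ones mainly used in these cells was not tested. The counts therefore do not describe other promoters of the same genes.

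**Figure D1:**
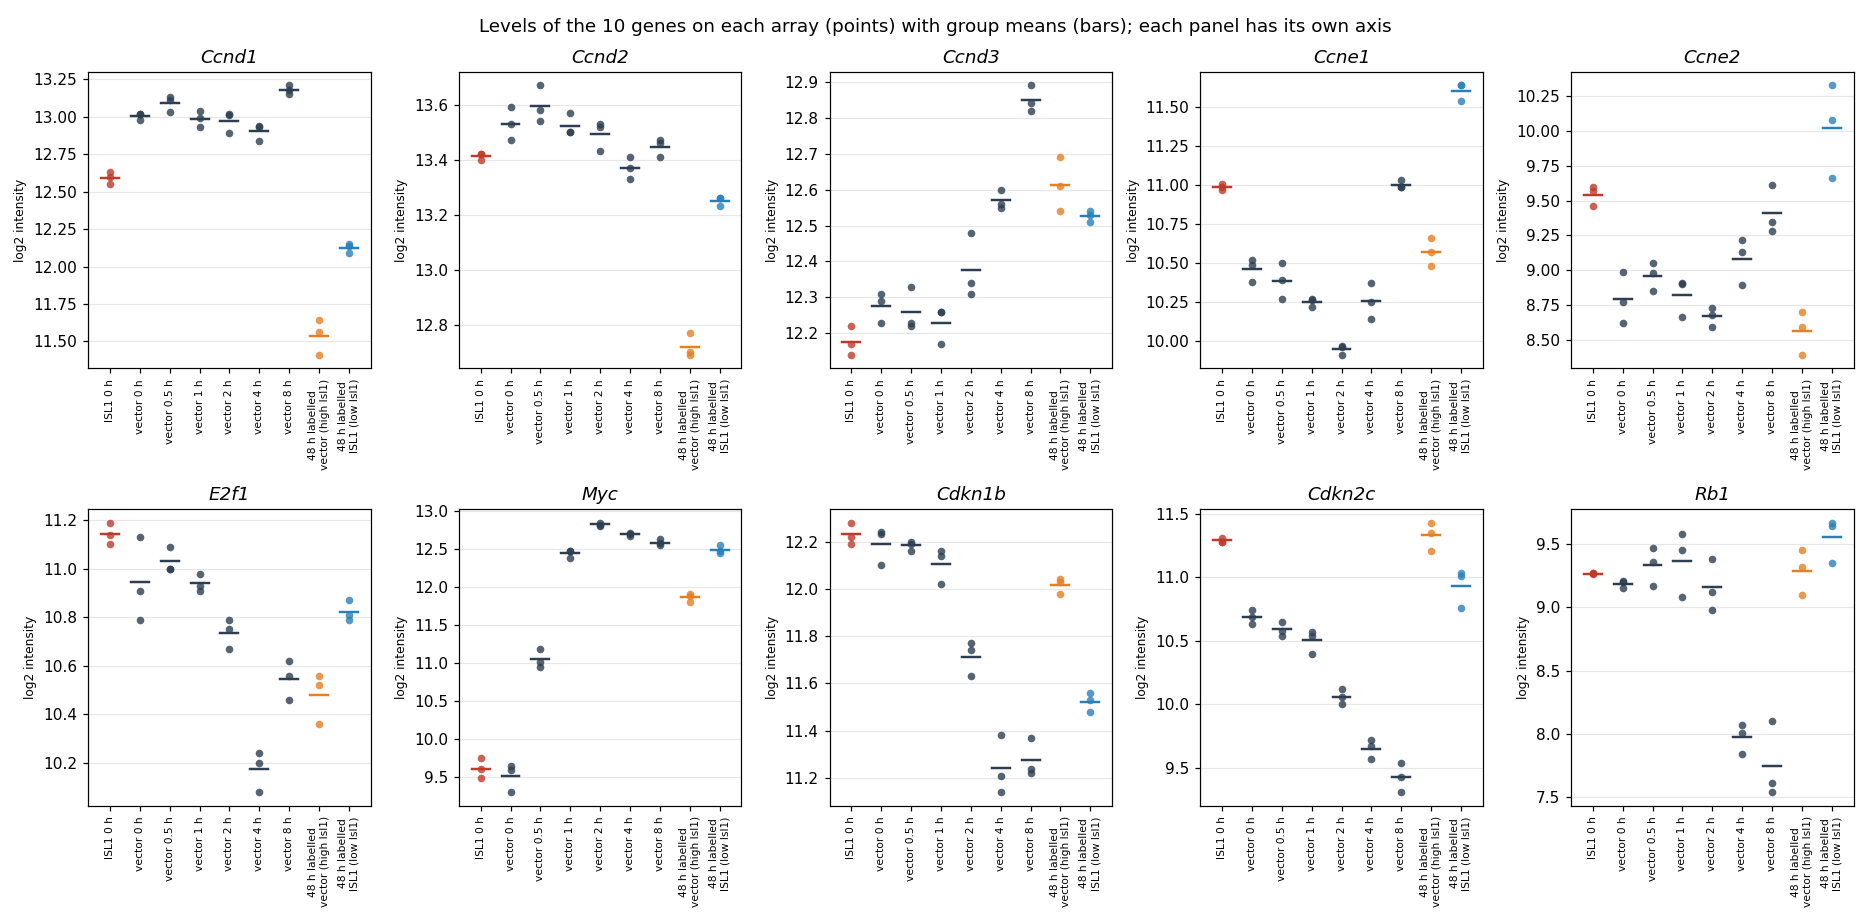
Log2 intensity (vertical axes, 1 scale per panel) of the 10 genes on each of the 27 arrays (points), with the group means as bars and the 9 groups along the horizontal axis. Myc stood between 9.30 and 9.64 in vector cells at 0 h and above 12.3 from 1 h to 8 h, while Cdkn2c and Rb1 were at their lowest in vector cells at 8 h.

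Over the 9 groups the genes spanned unequal ranges. The difference between the highest and the lowest group mean was 3.32 for Myc, 1.90 for Cdkn2c, 1.80 for Rb1, 1.66 for Ccne1, 1.64 for Ccnd1 and 1.47 for Ccne2. It was 0.99 for Cdkn1b, 0.97 for E2f1, 0.88 for Ccnd2 and 0.68 for Ccnd3. The median of these ranges was 1.55, beside 0.45 for all 19938 genes. Among all genes the ranges lay between percentile 64.6 for Ccnd3 and 99.2 for Myc. In mean intensity the 10 genes lay between percentile 59.2 for Rb1 and 99.5 for Ccnd2. The part of intensity in the wider ranges was not tested. When the 9 groups were put in order of their means for each gene, 24 of the 80 pairs of neighbours in those orders differed past the test and 56 did not.

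Myc rose first. In vector cells it read 9.59, 9.64 and 9.30 at 0 h, then 10.95, 11.02 and 11.19 at 0.5 h, 12.39, 12.47 and 12.47 at 1 h, and 12.82, 12.85 and 12.81 at 2 h. It then read 12.71, 12.68 and 12.70 at 4 h and 12.63, 12.55 and 12.58 at 8 h. Every array from 0.5 h on lay above every array at 0 h, and those at 2 h were the highest of all. Against 0 h the level was 2.91-fold at 0.5 h (log2 difference 1.54 ± 0.079, standard error of the limma fit, adjusted p = 1.33e-13), 7.64-fold at 1 h, 9.97-fold at 2 h (3.32, adjusted p = 2.85e-21), 9.10-fold at 4 h and 8.46-fold at 8 h. All of these comparisons share the 0 h vector arrays. From step to step, when 3.6% and 20.7% of all genes passed, it rose between 0.5 h and 1 h by 1.39 (adjusted p = 2.56e-12) and between 1 h and 2 h by 0.38 (adjusted p = 0.000572), and the difference of 4 h from 2 h was -0.13 and did not pass. In the order of its group means, ISL1 and vector cells at 0 h did not differ past the test, nor did the neighbours among 1 h, the 48 h arrays labelled ISL1, 8 h, 4 h and 2 h.

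Myc was the only one of the 10 genes past the test at 0.5 h, when 1.28% of all genes were, and at 1 h, when 7.07% were. At 1 h Ccne1 differed from 0 h by -0.22 ± 0.067, with an adjusted p of 0.053. Without the third vector array at 0 h the value was -0.258 (adjusted p = 0.0375), so that 2 of the 10 genes passed. The count was also 2 with a filter on low values and with other empirical Bayes settings, and 3 after a further quantile normalization, and the count of all genes was 912 in a fit of the compared groups only, against 1410.

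Genes known to be Myc targets followed later. The list held 22 genes, mostly of ribosome building, nucleotide and polyamine synthesis, all measured. Against vector cells at 0 h, 0 of 22 had passed at 0.5 h, 3 had risen at 1 h, 16 at 2 h, 21 at 4 h and 21 at 8 h, and none had fallen at any of these times. Beside that, 0.777%, 2.78%, 10.9%, 17.3% and 24.2% of all genes were higher at these times. The median difference of the list was 0.03 at 0.5 h, 0.05 at 1 h, 0.43 at 2 h, 1.07 at 4 h and 1.26 at 8 h. At 2 h Odc1, the first enzyme of polyamine synthesis, had risen by 1.30 ± 0.07 (adjusted p = 6.02e-14) and the nucleolar protein gene Nop56 by 1.18 ± 0.062. At 8 h the transferrin receptor Tfrc had risen by 2.51 ± 0.105 (adjusted p = 2.14e-16) and the nucleolar helicase Ddx21 by 2.11 ± 0.091.

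The Myc network also holds Myc's relatives and its partners. Of its 11 other genes 4 were higher and 1 lower at 4 h, and 6 were higher and 3 lower at 8 h, beside 40.1% of all genes past the test at 4 h and 46.1% at 8 h. The share at 4 h was thus near that of all genes. At 4 h Mxd1, which pairs with Max and opposes Myc, had risen by 1.34 ± 0.091 (adjusted p = 3.27e-12), and Mlx, the partner of the Mondo factors, by 0.80 ± 0.07. Mxd4, also an opponent of Myc, fell by 1.19 at 4 h (SE 0.065, adjusted p = 5.04e-14).

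**Figure D2:**
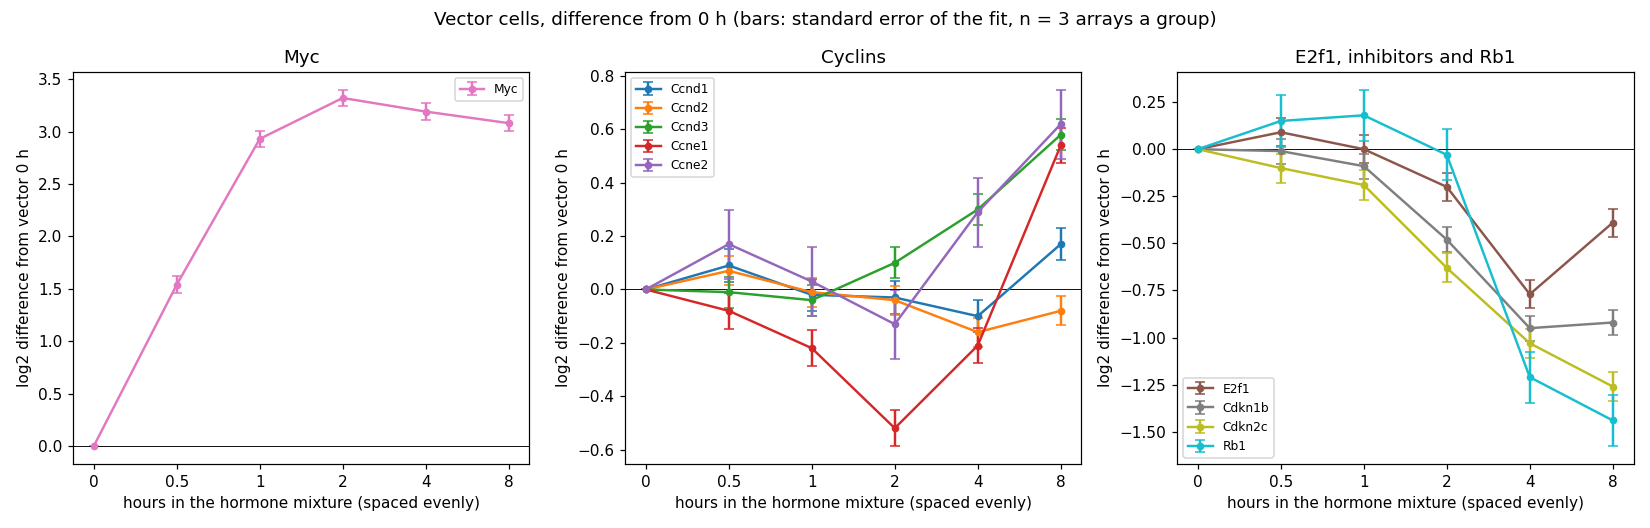
Log2 difference from vector cells at 0 h (vertical axes) against hours in the mixture (horizontal axis, times spaced evenly), with bars for the standard error of the limma fit and n = 3 arrays a group. Myc reached 3.32 at 2 h, Ccnd3, Ccne1 and Ccne2 ended between 0.54 and 0.62 at 8 h, and Cdkn1b, Cdkn2c and Rb1 ended between -1.44 and -0.92.

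Among the D cyclins Ccnd3 rose, and Ccnd1 and Ccnd2 differed from 0 h by no more than 0.17 up to 8 h. Ccnd3 read 12.31, 12.23 and 12.29 at 0 h, 12.60, 12.55 and 12.56 at 4 h, and 12.89, 12.84 and 12.82 at 8 h. Its arrays at 4 h lay above those at 0 h, and those at 8 h above both. The rise was 0.30 ± 0.058 at 4 h (adjusted p = 0.00012) and 0.58 ± 0.058 at 8 h (1.49-fold, adjusted p = 3.98e-09). In the order of its means neighbours differed only between 2 h and the 48 h arrays labelled ISL1, and between the 48 h arrays labelled vector and 8 h.

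Ccnd1 read 13.02, 13.02 and 12.98 at 0 h, 12.84, 12.94 and 12.93 at 4 h, and 13.18, 13.21 and 13.15 at 8 h. The 4 h arrays were below and the 8 h arrays above those at 0 h. The difference at 4 h was -0.10 (95% interval -0.23 to 0.03), which did not pass, and the one at 8 h was 0.17 ± 0.061 (adjusted p = 0.0211). The 8 h difference no longer passed without the third vector array at 0 h (0.159, adjusted p = 0.0678) or the second at 8 h (0.158, adjusted p = 0.0579). Between 4 h and 8 h the rise was 0.27 (adjusted p = 0.00124), and 5 of the 10 genes passed in that step, beside 23.9% of all genes. Ccnd2, which read 13.59, 13.53 and 13.47 at 0 h, read 13.33, 13.41 and 13.37 at 4 h and 13.47, 13.41 and 13.46 at 8 h. It fell by 0.16 at 4 h (SE 0.054, adjusted p = 0.0209), a call lost without the first vector array at 0 h (-0.127, adjusted p = 0.103) or the first at 4 h (-0.137, adjusted p = 0.091). At 8 h its difference was -0.08 (95% interval -0.19 to 0.03) and the arrays met those of 0 h at 13.47.

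Ccne1 first fell and then rose above its starting level. It read 10.52, 10.49 and 10.38 at 0 h, 9.91, 9.96 and 9.97 at 2 h, 10.14, 10.37 and 10.25 at 4 h, and 10.99, 10.99 and 11.03 at 8 h. The 2 h arrays were the lowest and the 8 h arrays the highest of the vector arrays up to 8 h, with no overlap between either and 0 h. Ccne1 fell by 0.52 at 2 h (SE 0.067, adjusted p = 7.16e-07) and by 0.21 at 4 h (SE 0.067, adjusted p = 0.013), and at 8 h it was 1.45-fold higher than at 0 h (0.54 ± 0.067, adjusted p = 1.88e-07). The 4 h call was lost without the first vector array at 0 h (-0.183, adjusted p = 0.0598) or the first at 4 h (-0.154, adjusted p = 0.11). The step from 4 h to 8 h was 0.75 ± 0.067 (adjusted p = 3.88e-09).

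Ccne2 read 8.77, 8.99 and 8.62 at 0 h, 8.73, 8.59 and 8.68 at 2 h, 8.89, 9.13 and 9.22 at 4 h, and 9.28, 9.61 and 9.35 at 8 h. The 2 h and 4 h arrays overlapped those of 0 h, and the 8 h arrays lay above them. The difference at 4 h was 0.29 ± 0.129 (adjusted p = 0.0838). It passed without the second vector array at 0 h (0.385, adjusted p = 0.0333) or the first at 4 h (0.381, adjusted p = 0.0357). At 8 h Ccne2 had risen 1.53-fold (0.62 ± 0.129, adjusted p = 0.000268).

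E2f1, an E2F factor tied to entry into DNA synthesis, fell and then came part of the way back. It read 11.13, 10.91 and 10.79 at 0 h, 10.75, 10.67 and 10.79 at 2 h, 10.08, 10.24 and 10.20 at 4 h, and 10.62, 10.56 and 10.46 at 8 h. All arrays at 4 h and 8 h lay below those at 0 h, and those at 4 h below those at 8 h. E2f1 fell by 0.77 at 4 h (SE 0.075, adjusted p = 2.67e-09) and by 0.39 at 8 h (SE 0.075, adjusted p = 8.19e-05), and the step from 4 h to 8 h was a rise of 0.37 ± 0.075 (adjusted p = 0.000404). At 2 h it was lower by a log2 difference of -0.20 (adjusted p = 0.0426). That call was lost without the first (-0.11, adjusted p = 0.337) or the second (-0.221, adjusted p = 0.0615) vector array at 0 h, or the first (-0.21, adjusted p = 0.0799) or the second (-0.169, adjusted p = 0.17) at 2 h.

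Genes of DNA synthesis known to be under E2F control were mostly lower at 2 h and 4 h. Of 21 measured members of that list 0 passed at 0.5 h, 2 were higher and 1 lower at 1 h, 2 were higher and 11 lower at 2 h than at 0 h, 3 were higher and 16 lower at 4 h, and 9 were higher and 4 lower at 8 h. Of all genes 17.5% were lower at 2 h and 22.7% at 4 h. The list had a median difference of -0.26 at 2 h and -0.45 at 4 h, and of 0.07 at 8 h. From 4 h to 8 h 14 of the 21 rose and 0 fell, beside 13.7% of all genes that rose, with a median of 0.61. At 4 h the primase gene Prim1 fell by 0.97 (SE 0.137, adjusted p = 1.48e-06) and the helicase subunit Mcm6 by 0.87 (SE 0.086), while Rrm2, a ribonucleotide reductase subunit, had risen by 1.14 ± 0.075 (adjusted p = 1.96e-12). At 8 h Rrm2 was 1.29 ± 0.075 and the origin recognition gene Orc1 0.95 ± 0.12 above 0 h (adjusted p = 1.41e-13 and 2.43e-07).

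The inhibitor Cdkn1b fell from 2 h on. It read 12.10, 12.24 and 12.23 at 0 h, 11.77, 11.63 and 11.74 at 2 h, 11.14, 11.38 and 11.21 at 4 h, and 11.22, 11.37 and 11.24 at 8 h. From 2 h on no array reached the 0 h arrays. It fell by 0.48 at 2 h (SE 0.066, adjusted p = 1.79e-06), by 0.95 at 4 h (SE 0.066, adjusted p = 5.17e-12) and by 0.92 at 8 h (SE 0.066, adjusted p = 8.87e-12). Its second probe set averaged 8.48 ± 0.301 at 0 h, 8.17 ± 0.214 at 2 h, 7.43 ± 0.121 at 4 h and 7.37 ± 0.377 at 8 h (SD, n = 3 each), so its means at 4 h and 8 h were lower too.

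Cdkn2c fell further with each time from 2 h. It read 10.74, 10.69 and 10.63 at 0 h, 10.06, 10.00 and 10.12 at 2 h, 9.57, 9.67 and 9.72 at 4 h, and 9.54, 9.43 and 9.31 at 8 h. The arrays of these 4 times did not overlap. It fell by 0.63 at 2 h (SE 0.077, adjusted p = 2.9e-07), by 1.03 at 4 h (SE 0.077, adjusted p = 1.8e-11) and by 1.26 at 8 h (SE 0.077, adjusted p = 3.41e-13), when it was 2.40-fold lower than at 0 h. The last step, -0.23 from 4 h to 8 h (adjusted p = 0.0325), lost its call without the second (-0.216, adjusted p = 0.0883) or the third (-0.194, adjusted p = 0.136) array at 4 h, or the second (-0.229, adjusted p = 0.0586) or the third (-0.166, adjusted p = 0.192) at 8 h.

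Of 5 other measured kinase inhibitor genes 0 were higher and 3 lower at 4 h than at 0 h, and 1 was higher and 3 were lower at 8 h, when 40.1% and 46.1% of all genes passed. Cdkn2b, which like Cdkn2c blocks Cdk4 and Cdk6, fell by 1.23 at 4 h (SE 0.074, adjusted p = 3.37e-13), and Cdkn3, a phosphatase that acts on Cdk2, by 1.25 (SE 0.1). Of 13 genes for kinases and their activators 4 were higher and 6 lower at 4 h, and 6 were higher and 4 lower at 8 h, beside the same shares of all genes. At 4 h the activating phosphatase Cdc25a had risen by 1.09 ± 0.102 (adjusted p = 1.28e-09) and Cdk6 by 1.01 ± 0.074, and Cdc25b fell by 0.93 (SE 0.089). At 8 h Skp2, which marks Cdkn1b protein for breakdown, was 0.80 ± 0.067 higher than at 0 h (adjusted p = 1.39e-10).

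Rb1 did not pass the test up to 2 h and then fell. It read 9.21, 9.15 and 9.20 at 0 h, 9.12, 8.98 and 9.38 at 2 h, 7.84, 8.01 and 8.07 at 4 h, and 7.54, 8.10 and 7.61 at 8 h. The 2 h arrays lay on both sides of those at 0 h, and all 6 arrays at 4 h and 8 h lay below every other array of the series. Rb1 fell by 1.21 at 4 h (SE 0.136, adjusted p = 3.15e-08) and by 1.44 at 8 h (SE 0.136, adjusted p = 1.37e-09), when it was 2.71-fold lower than at 0 h. The step from 2 h to 4 h was -1.18 ± 0.136 (adjusted p = 1.65e-07), one of 7 of the 10 genes that passed between these times, beside 28% of all genes. The other pocket protein genes were lower at 4 h as well: Rbl1 fell by 1.12 (SE 0.131, adjusted p = 6.33e-08) and Rbl2 by 1.02 (SE 0.087, adjusted p = 2.73e-10). At 8 h Tfdp1, the partner of E2F proteins, had risen by 0.69 ± 0.071 and E2f4, a repressing E2F, by 0.62 ± 0.063, and 4 of the 11 genes of the E2F, DP and pocket protein list were higher and 4 lower, beside 46.1% of all genes past the test.

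The count of the 10 genes past the test against 0 h grew with time, as did that of all genes. At 2 h 5 of 10 passed (1 higher, 4 lower) and 28.3% of all genes did. At 4 h 8 of 10 passed (2 higher, 6 lower) beside 40.1%, and at 8 h 9 of 10 (5 higher, 4 lower) beside 46.1%. In an F test for any change from 0 h to 8 h all 10 passed, beside 51.7% of all genes, with adjusted p from 9.25e-22 for Myc to 0.0174 for Ccnd2. The Ccnd2 call of that test was lost without the third array at 0.5 h (adjusted p = 0.061), the first at 4 h (0.0784) or the third at 4 h (0.052). Markers of cell type moved over the same hours. Of 9 fibroblast markers 5 were lower at 4 h and 7 at 8 h than at 0 h, with Pdgfrb at -1.72 ± 0.073 at 8 h, and of 10 adipocyte markers 6 were lower at 4 h and 8 at 8 h. At 4 h the macrophage marker Cd68 was 1.03 ± 0.08 and the endothelial marker Cdh5 0.65 ± 0.083 higher, each the only gene of its list that was higher. Of the 7 measured macrophage and blood markers 1 was lower at 4 h, and of the 5 endothelial markers 0 were. The part of these markers in the results was not tested.

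Before the mixture, ISL1 cells had higher E cyclins and Cdkn2c and lower Ccnd1 than vector cells. Ccne1 read 10.99, 10.97 and 11.01 in ISL1 cells, against 10.52, 10.49 and 10.38 in vector cells. Ccne2 read 9.46, 9.57 and 9.60 in ISL1 cells, against 8.77, 8.99 and 8.62 in vector cells. In both genes the arrays of the constructs did not overlap, and the differences were 0.53 ± 0.067 for Ccne1 (adjusted p = 7.69e-07) and 0.75 ± 0.129 for Ccne2 (adjusted p = 5.88e-05).

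Cdkn2c read 11.31, 11.28 and 11.28 in ISL1 cells, against 10.74, 10.69 and 10.63 in vector cells, and was 0.60 ± 0.077 higher (adjusted p = 8.03e-07). Ccnd1 read 12.55, 12.63 and 12.60 in ISL1 cells, against 13.02, 13.02 and 12.98 in vector cells, and was lower by 0.41 (SE 0.061, adjusted p = 7.02e-06). Again neither gene's arrays overlapped. E2f1 read 11.19, 11.14 and 11.10 in ISL1 cells, against 11.13, 10.91 and 10.79 in vector cells, which overlap. Its difference of 0.20 ± 0.075 (adjusted p = 0.0469) lost its call without the second or the third vector array or any single ISL1 array (0.128 to 0.226, adjusted p from 0.0594 to 0.31).

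The other 5 genes did not pass at 0 h. Myc differed by 0.10 (95% interval -0.06 to 0.26) and Cdkn1b by 0.04 (95% interval -0.10 to 0.17), while Ccnd2 differed by -0.12, Ccnd3 by -0.10 and Rb1 by 0.08. The second Cdkn1b probe set averaged 8.88 ± 0.096 in ISL1 cells and 8.48 ± 0.301 in vector cells (SD, n = 3 each). Its arrays did not overlap (8.77 to 8.95 against 8.15 to 8.73), unlike those of the brighter probe set, and it was not tested by itself. So 5 of 10 passed (4 higher, 1 lower), beside 25.7% of all genes. Of the lists, all 21 measured genes of DNA synthesis were higher in ISL1 cells, with a median difference of 0.95, beside 15.3% of all genes that were higher. Prim1 was 1.47 ± 0.137 and Gins1, part of the replication helicase, 1.28 ± 0.144 higher (adjusted p = 3.92e-09 and 9.9e-08). Of the 22 Myc targets 19 were higher and 0 lower, with a median of 0.35, and of the 13 kinases and activators 9 were higher and 0 lower. All 10 adipocyte markers were lower in ISL1 cells in the same comparison (median difference -2.19), as were 6 of 9 fibroblast markers (median -0.39) and Lyz2 (-4.84 ± 0.087). Their part in these results was not tested, and in bulk RNA a change in the share of cells of a type and a change of RNA per cell cannot be told apart.

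At 48 h the 2 groups of arrays stood apart in 8 of the 10 genes. With high Isl1 signal, on the arrays labelled vector, both E cyclins, Ccnd1, Ccnd2, E2f1 and Myc were lower and both inhibitors higher than with low Isl1 signal, on the arrays labelled ISL1. Ccne2 read 8.59, 8.39 and 8.70 on the arrays labelled vector, against 10.08, 9.66 and 10.33 on those labelled ISL1. Ccne1 read 10.48, 10.57 and 10.66 on the arrays labelled vector, against 11.64, 11.54 and 11.64 on those labelled ISL1. The groups did not overlap in either gene. Ccne2 was 2.76-fold lower (log2 difference -1.47 ± 0.129, adjusted p = 1.27e-09) and Ccne1 2.04-fold lower (-1.03 ± 0.067, adjusted p = 4.13e-12) with high Isl1 signal.

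Cdkn1b read 12.04, 11.98 and 12.03 on the 48 h arrays labelled vector (high Isl1), against 11.53, 11.48 and 11.56 on those labelled ISL1 (low Isl1), and was 1.41-fold higher (0.49 ± 0.066, adjusted p = 1.38e-06). Its second probe set averaged 8.60 ± 0.188 on the arrays labelled vector and 7.97 ± 0.137 on those labelled ISL1 (SD, n = 3 each). Cdkn2c read 11.43, 11.21 and 11.35 on the arrays labelled vector, against 11.01, 10.76 and 11.03 on those labelled ISL1, and was 1.32-fold higher (0.40 ± 0.077, adjusted p = 0.000193). In neither inhibitor did the groups overlap.

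Myc read 11.91, 11.81 and 11.88 on the 48 h arrays labelled vector, against 12.47, 12.45 and 12.55 on those labelled ISL1, a difference of -0.62 ± 0.079 (adjusted p = 5.72e-07). Ccnd1 read 11.56, 11.41 and 11.64 on the arrays labelled vector, against 12.09, 12.14 and 12.15 on those labelled ISL1, and differed by -0.59 ± 0.061 (adjusted p = 2.14e-08). Both genes were lower on every array with high Isl1 signal. Ccnd2 differed by -0.53 ± 0.054 (adjusted p = 1.76e-08) and E2f1 by -0.34 ± 0.075 (adjusted p = 0.000707), again without overlap. Ccnd3 differed by 0.08 (95% interval -0.04 to 0.20). Rb1 differed by -0.26 ± 0.136 (adjusted p = 0.181), with overlapping arrays, and passed in a fit of these 6 arrays alone with the replicate number as a block (adjusted p = 0.0215), where 9 of the 10 genes passed.

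The 8 of 10 called (2 higher, 6 lower) stand beside 27.9% of all genes. Of the 21 genes of DNA synthesis 20 were lower with high Isl1 signal, and 0 higher, with a median of -0.87, beside 14% of all genes that were lower. Rrm2 was lower by a log2 difference of -1.68 ± 0.075 (adjusted p = 2.41e-15) and the helicase component Cdc45 by -1.30 ± 0.082. Of the 22 Myc targets 17 were lower and 0 higher, with Tfrc at -1.72 ± 0.105 and Odc1 at -1.15 ± 0.07. The inhibitor gene Cdkn2b was 0.76 ± 0.074 higher (adjusted p = 8.41e-09) and Rbl2 0.46 ± 0.087 higher. The adipocyte markers had medians per array of 9.28 to 9.49 on the arrays labelled vector and 11.83 to 11.97 on those labelled ISL1, and 10 of 10 were lower with high Isl1 signal. Of 9 fibroblast markers 2 were higher and 2 lower, and Lyz2 and Cd68 differed by -0.81 ± 0.087 and -0.57 ± 0.08. The part of these markers was not tested.

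**Figure D3:**
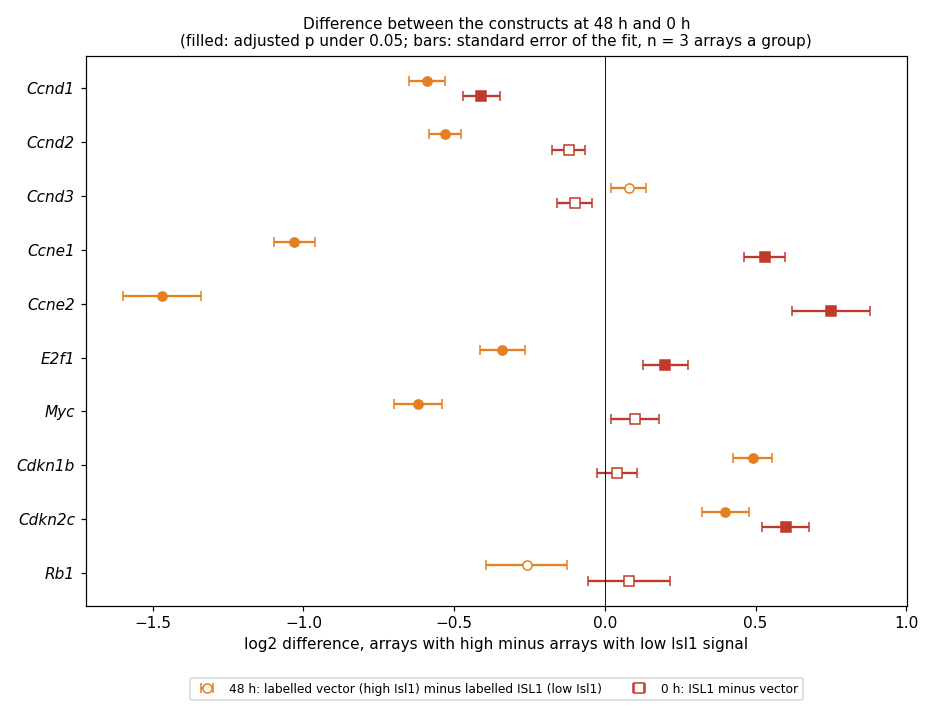
Log2 difference (horizontal axis) of arrays with high minus arrays with low Isl1 signal for each of the 10 genes, at 48 h (labelled vector minus labelled ISL1) and at 0 h (ISL1 minus vector), with bars for the standard error and n = 3 arrays a group. Ccne1 and Ccne2 lie at -1.03 and -1.47 at 48 h and at 0.53 and 0.75 at 0 h, and filled symbols have an adjusted p under 0.05.

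Whether the difference between high and low Isl1 signal was the same at 48 h as at 0 h was tested in 1 contrast of the 4 groups. This difference of differences, high minus low Isl1 signal at 48 h less the same at 0 h, passed for 6 of the 10 genes (1 higher, 5 lower), beside 24.5% of all genes. It was -2.21 ± 0.183 for Ccne2 (adjusted p = 5.94e-10), -1.56 ± 0.095 for Ccne1 (adjusted p = 4.37e-12) and -0.72 ± 0.111 for Myc (adjusted p = 1.29e-05). It was -0.55 ± 0.106 for E2f1, -0.41 ± 0.077 for Ccnd2 and 0.46 ± 0.093 for Cdkn1b, which did not pass with the mean of its 2 probe sets (0.345, adjusted p = 0.122). For Ccne1, Ccne2 and E2f1 the sign was opposite at the 2 times, each past its own test. The E2f1 call at 0 h (0.20, adjusted p = 0.0469) was lost in some of the alternative fits. The difference of differences did not pass for Ccnd1 (-0.18, 95% interval -0.35 to 0.00), Ccnd3 (0.18), Cdkn2c (-0.20) or Rb1 (-0.34). For Cdkn2c it passed without the second 48 h array labelled ISL1 (-0.286, adjusted p = 0.0451). Of the genes of DNA synthesis 21 of 21 and of the Myc targets 20 of 22 had a lower difference at 48 h, with medians of -1.87 and -0.95, beside 13.2% of all genes.

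Set against 0 h, the 48 h arrays with low Isl1 signal, labelled ISL1, differed from vector cells in 9 of the 10 genes (6 higher, 3 lower), beside 41.4% of all genes. Myc was 7.89-fold higher (2.98 ± 0.079, adjusted p = 1.33e-20), Ccne2 2.35-fold (1.23 ± 0.129, adjusted p = 1.06e-08) and Ccne1 2.21-fold (1.14 ± 0.067, adjusted p = 1.68e-13). Ccnd3 was 0.25 ± 0.058 higher (adjusted p = 0.000737). Ccnd1 fell by 0.88 (SE 0.061, adjusted p = 4.15e-12), Cdkn1b by 0.67 (SE 0.066, adjusted p = 3.08e-09) and Ccnd2 by 0.28 (SE 0.054, adjusted p = 0.000135).

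Cdkn2c and Rb1 were higher on these arrays than at 0 h, by 0.24 ± 0.077 (adjusted p = 0.0129) and 0.36 ± 0.136 (adjusted p = 0.0342). The Rb1 call was lost without any single vector array at 0 h or the first or the third array labelled ISL1 (0.303 to 0.374, adjusted p from 0.0613 to 0.121). The Cdkn2c call was lost without the third vector array or the first or the third array labelled ISL1 (0.192 to 0.211, adjusted p from 0.0586 to 0.0755). Against vector cells at 8 h the same arrays had 3.48-fold more Rb1 (1.80 ± 0.136, adjusted p = 4.01e-11) and 2.83-fold more Cdkn2c (adjusted p = 1.83e-14), while Myc differed by -0.10 and did not pass. In that comparison 9 of 10 genes passed, beside 30.6% of all genes. The macrophage marker Lyz2 differed between these arrays and vector cells at 0 h by -4.49 ± 0.087 and Cd68 by 0.63 ± 0.08. All 9 fibroblast markers were lower (median difference -0.92) and 9 of 10 adipocyte markers higher (median 1.34) in that comparison. The part of these markers in the results was not tested.

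The 48 h arrays with high Isl1 signal, labelled vector, differed from ISL1 cells at 0 h in 8 of the 10 genes (2 higher, 6 lower), beside 33.2% of all genes. Myc was 4.78-fold higher (2.26 ± 0.079, adjusted p = 5.71e-18) and Ccnd3 0.44 ± 0.058 higher. Ccnd1 fell by 1.06 (SE 0.061, adjusted p = 1.57e-13), Ccne2 by 0.98 (SE 0.129), Ccnd2 by 0.69 (SE 0.054), E2f1 by 0.67 (SE 0.075) and Ccne1 by 0.42 (SE 0.067, adjusted p = 1.41e-05). Cdkn1b fell by 0.22 (SE 0.066, adjusted p = 0.0118), a call lost without the first ISL1 array at 0 h (-0.189, adjusted p = 0.0611) and with the mean of its 2 probe sets (-0.248, adjusted p = 0.0909). All 21 genes of DNA synthesis were lower, with a median of -1.05, beside 19% of all genes, and of the 22 Myc targets 11 were higher and 3 lower, beside 14.2% of all genes that were higher. In the same comparison 10 of 10 adipocyte markers were higher (median difference 1.24) and 7 of 9 fibroblast markers lower (median -0.36), and their part was not tested.

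With the 48 h and 0 h arrays paired as their labels read, 7 of 10 genes passed between the 48 h arrays labelled vector and vector cells at 0 h, beside 36.8% of all genes, and 9 of 10 between the 48 h arrays labelled ISL1 and ISL1 cells at 0 h, beside 43.1%. These pairings also cross Isl1 signal, which differed by 5.42 for the arrays labelled vector and by -4.97 for those labelled ISL1. Time and Isl1 signal cannot be told apart in them. In the pairing by label Ccne1 differed by 0.11 ± 0.067 and Ccne2 by -0.24 ± 0.129 on the arrays labelled vector, neither past the test. On the arrays labelled ISL1 they were higher by 0.61 ± 0.067 and 0.48 ± 0.129 (adjusted p = 2.14e-08 and 0.00337). Myc was higher and Ccnd1 and Ccnd2 lower in all 4 pairings of 48 h with 0 h, past the test each time. The Ccnd2 call on the arrays labelled ISL1 against ISL1 cells (-0.16) was lost without the first array of either group (-0.156 and -0.15).

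**Figure D4:**
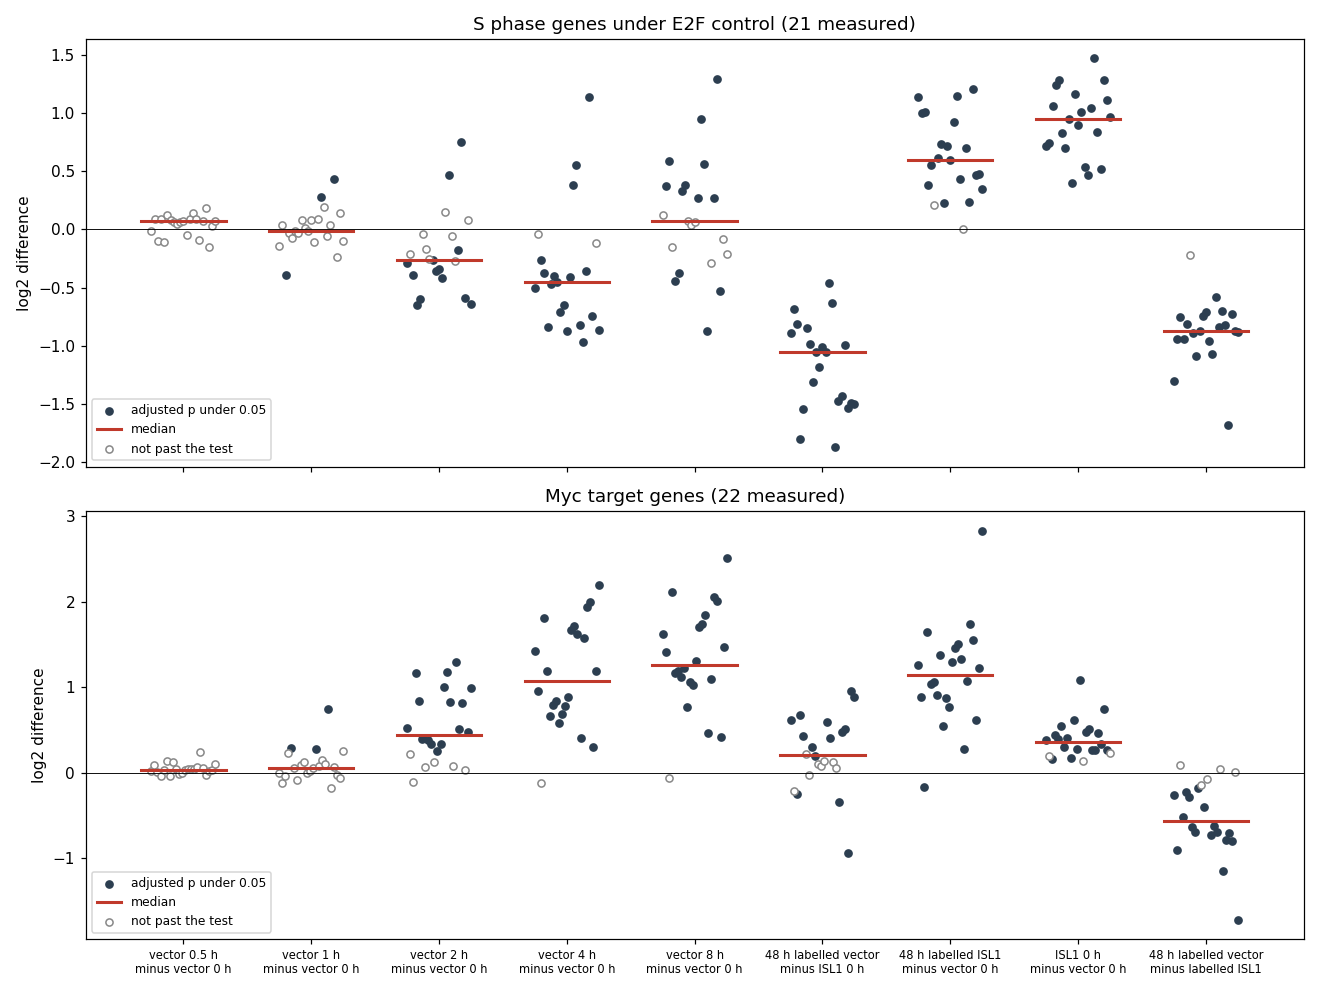
Log2 difference (vertical axes) of each measured gene of the DNA synthesis list (21, upper panel) and the Myc target list (22, lower panel) in 9 comparisons (horizontal axis), with red bars for the medians and filled points for an adjusted p under 0.05. The DNA synthesis list had medians of -0.45 at 4 h, 0.95 between ISL1 and vector cells at 0 h and -0.87 between the 48 h arrays labelled vector and those labelled ISL1.

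For each gene the patterns most like its own were sought among 2025 genes whose 9 group means had an SD of at least 0.5. The measure was Pearson's r over the 9 group means, which all share the same arrays, so these are descriptions. Ccnd1 was closest to Fxyd5 (0.97) and Ccnd2 to Ccnd1 itself (0.93). Both E cyclins were closest to Wdhd1, a replication fork protein (0.937 for Ccne1 and 0.925 for Ccne2). Ccnd3 was closest to the amino acid transporter gene Slc7a6 (0.976) and E2f1 to the ciliary gene Alms1 (0.954). Myc was closest to Ctla2a and the transcription factor gene Nfil3 (0.971 each). Cdkn1b was closest to Il10rb (0.996) and to the cholesterol synthesis gene Fdft1 (0.991), Cdkn2c to Lyplal1 (0.969), and Rb1 to Acadl (0.969), an enzyme of fatty acid oxidation.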

How the data were processed

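Total RNA from 27 cultures was measured on Affymetrix mouse gene arrays. The deposited table holds log2 intensities that the authors made with RMA, per the submitters' processing notes. Its software and version, and whether arrays were normalized together, were not given in the sources used here, and the labels do not state the log base, which was read from the values (3.35 to 14.85, array medians 7.89 to 8.07). Of 28853 probe sets 21789 had 1 symbol in the platform table and were used, and 1621 with several and 5443 with none were left out. Where several probe sets had the same symbol (999 genes) the brightest on average stood for the gene, leaving 19938 genes.

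The 27 arrays entered 1 linear model with a mean for each group (limma 3.58.1, R 4.3.3, empirical Bayes), with two-sided tests of 17 comparisons and an F test over vector cells from 0 h to 8 h. Benjamini-Hochberg adjustment ran over all genes within each comparison, with a threshold of 0.05, and "passed", "rose" and "fell" refer to it. The fit was run on simulated data with independent noise on each array. That setting does not show how the fit performs where arrays of different groups deviate together. The alternatives were a filter (highest group mean of at least 6), the mean of all probe sets of a gene, centring each array on its median, a further quantile normalization, other empirical Bayes settings, fits of the compared groups only, the replicate number as a block, and leaving out each array. Fits without the 48 h arrays, and of the paired groups with a block, were added after seeing the data.

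The 10 genes and the gene lists were chosen with earlier results of these data known. Named are the 10 genes, Isl1 and the genes closest to the 10 in pattern. The epithelial and muscle marker lists are not described here. From the other lists, up to 2 genes that rose most and 2 that fell most in a comparison are named. Ptprc and Adgre1 lie outside this rule and were named after their values were seen. Replicate numbers were checked for pairing: in 4 of 36 pairs of groups, 0.5 h with 1 h, 0.5 h with 4 h, 1 h with 4 h and the 48 h groups, all 3 same-numbered arrays deviated together (correlations over 0.1). The labels do not say what a number shares. Promoters of Ccnd1, Ccnd2, Ccne2, Myc and Rb1 were not used here.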

Additional observations from a re-analysis of the deposited data

Results flagged for a closer look

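Of the 10 genes 6 had a difference between high and low Isl1 signal that was not the same at 48 h and 0 h, by a test of the difference itself. It was lower at 48 h for Ccne2 (-2.21), Ccne1 (-1.56), Myc (-0.72), E2f1 (-0.55) and Ccnd2 (-0.41), and higher for Cdkn1b (0.46). Each has 3 arrays in each of the 4 groups, and the 48 h arrays are those whose Isl1 signal runs against their labels. With the mean of both probe sets in place of the brighter one, Cdkn1b came to 0.345 and did not pass (adjusted p = 0.122).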

How the results depend on the processing

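Of 2650 values of the 10 genes under all alternatives, 2550 kept their side of the threshold, 67 lost a call, 33 gained one and 0 reversed. The number of the 10 genes past the test at 1 h, 1 as reported, was 2 with the filter on low values, 3 with a further quantile normalization, 2 with the other empirical Bayes settings, and 1 to 2 when single arrays were left out. The genes past the test at 1 h against 0 h were 1410, and 912 in a fit of the compared groups only. Those at 1 h against 0.5 h were 718, and 398 in that fit. The cause was not tested.

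With the replicate number as a block in the whole fit, E2f1 in ISL1 against vector cells at 0 h lost its call (adjusted p = 0.0505), which left 4 genes there, and the block changed no other call of the 10 genes. The 48 h count of all genes was 5553, and 5534 with the block. Without the 48 h arrays Ccne2 passed at 4 h (0.287, adjusted p = 0.0323).

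Centring each array on its median moved the share of higher among called genes to 56% at 1 h (39.3% as deposited), 59% at 2 h (38.4%), 61.2% at 4 h (43.3%) and 64.8% at 8 h (52.5%), to 57.4% for the 48 h arrays labelled vector against ISL1 cells at 0 h (42.6%), to 61.4% for them against vector cells (49.2%), and to 70.4% at 1 h against 0.5 h (51%). Under it E2f1 at 2 h was -0.121 and did not pass (adjusted p = 0.248). Detection calls were not used here, so dim values have no test against background.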

Other observations

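In a list of 8 cyclins outside the D and E families, most were lower from 2 h to 8 h. The list does not hold every such cyclin, since Ccnh was listed with the kinases and activators. Of 7 measured, 1 was higher and 0 lower at 0.5 h than at 0 h in vector cells, 1 was higher and 2 lower at 1 h, 1 higher and 4 lower at 2 h, and 1 higher and 5 lower at 4 h and at 8 h. Of all genes 1.28% passed at 0.5 h, 7.07% at 1 h, 28.3% at 2 h, 40.1% at 4 h and 46.1% at 8 h. Ccng2, a cyclin linked to growth arrest, fell by 1.92 at 2 h (SE 0.083, adjusted p = 5.74e-16 in the limma fit) and by 1.64 at 8 h (SE 0.083). The mitotic cyclin Ccnb2 fell by 1.07 at 8 h (SE 0.074, adjusted p = 4.1e-12), and Ccnl1, which is linked to RNA splicing, had risen by 1.63 ± 0.079 at 2 h and by 0.46 ± 0.079 at 8 h. In ISL1 cells before the mixture Ccnf was 1.26 ± 0.114 and Ccnb2 0.99 ± 0.074 higher than in vector cells.

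The Isl1 probe set itself was not level in vector cells. It averaged 7.34 at 0 h, 7.36 at 0.5 h, 7.48 at 1 h, 8.59 at 2 h, 8.28 at 4 h and 8.02 at 8 h, and had risen by 1.26 ± 0.107 at 2 h (adjusted p = 5.42e-10).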
